A study of Mus musculus with 36 samples.

Results

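The comparison set miRNAs of Lgr5 High cells, sorted as intestinal stem cells, against those of Paneth cells, their neighbours at the base of the crypt. It used 8 of the 36 samples of a survey of the mouse small-intestinal epithelium: 2 Lgr5 High libraries and 6 Paneth libraries, chosen by the population named in the labels. All 8 came from small intestine of strain C57BL6/2J, and cells of each population were isolated by fluorescence-activated cell sorting (FACS) before small RNA libraries were made with the TriLink CleanTag kit. The labels give no treatment or genotype for them, and no age, sort gate, reporter allele or number of animals. They do not say that samples of a population are separate animals, so the p-values measure only the spread between these libraries, which may be technical. The deposited values are counts of each miRNA divided by 1 factor per library, called values below. They have no unit beyond that scale.

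A miRNA is cut from a hairpin precursor as a duplex whose 2 strands, the 5p and 3p arms, are loaded unequally into Argonaute proteins. Bases 2 to 8 of the loaded strand, the seed, pair with target mRNAs, so miRNAs with 1 seed can share targets. Lgr5 is the R-spondin receptor that marks crypt-base stem cells, which divide and renew the epithelium. Paneth cells are long-lived secretory cells that release lysozyme and defensins and supply Wnt and Notch ligands to the stem cells wedged between them.

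The sequences below are the mature miRNAs on which the comparison turned, shown because members with the same seed moved together in some groups and apart in others. Capitals mark the seed, and sequences and positions are those of RefSeq on GRCm38.p6.
miR-148a-3p: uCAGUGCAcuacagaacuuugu
miR-148b-3p: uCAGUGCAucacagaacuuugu
miR-152-3p: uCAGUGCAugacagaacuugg
miR-192-5p: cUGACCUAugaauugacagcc
miR-215-5p: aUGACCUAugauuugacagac
let-7b-5p: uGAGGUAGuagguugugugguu
let-7i-5p: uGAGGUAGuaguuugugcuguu
miR-10a-5p: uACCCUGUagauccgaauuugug
miR-10b-5p: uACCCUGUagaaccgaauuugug
miR-130a-3p: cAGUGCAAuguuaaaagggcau
miR-301a-3p: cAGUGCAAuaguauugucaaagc
miR-30c-1-3p: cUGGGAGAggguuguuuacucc
miR-30c-2-3p: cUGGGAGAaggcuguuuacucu
miR-181c-5p: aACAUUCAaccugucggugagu
miR-22-3p: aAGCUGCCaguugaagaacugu
miR-34a-5p: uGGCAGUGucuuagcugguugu
miR-574-5p: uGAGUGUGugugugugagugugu
The CAGUGCA family lies at 3 loci. miR-148a-3p is at chr6:51269829-51269850 (minus strand) in an intron of Gm38821. miR-148b-3p is at chr15:103285185-103285206 (plus strand) in an intron of Copz1. miR-152-3p is at chr11:96850439-96850459 (plus strand) in an intron of Copz2. Neither member of the UGACCUA pair lies in an annotated host gene: miR-192-5p is at chr19:6264857-6264877 (plus strand) and miR-215-5p at chr1:185313610-185313630 (plus strand). miR-22-3p is in an exon of the long noncoding RNA Mir22hg at chr11:75463772-75463793 (plus strand), and miR-574-5p in an intron of Fam114a1 at chr5:64970328-64970350 (plus strand). miR-34a-5p at chr4:150068473-150068494 (plus strand) and miR-181c-5p at chr8:84178924-84178945 (minus strand) have no annotated host gene. miR-10a-5p is in an intron of Hoxb3 at chr11:96317186-96317208 and miR-10b-5p in an intron of Hoxd4 at chr2:74726074-74726096, both on the plus strand. let-7b-5p is in an exon of the noncoding RNA Lncppara at chr15:85707325-85707346 (plus strand), while let-7i-5p at chr10:122985698-122985719 (minus strand) has no host. miR-30c-1-3p is in an intron of Nfyc at chr4:120769546-120769567 (minus strand), and miR-30c-2-3p at chr1:23291754-23291775 (plus strand) has no host. miR-301a-3p is in an intron of Ska2 at chr11:87113054-87113076 (plus strand), and miR-130a-3p at chr2:84741116-84741137 (minus strand) has no host.

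The Lgr5 High libraries held 24611108 and 16013732 reads, against 2575073 to 3862826 reads in the Paneth libraries. No entry with under 10 reads is listed, so a value of 0 hides up to 9 reads, and 10 reads were worth 1.46 and 2.44 in the Lgr5 High libraries against 7.03 to 9.39 in Paneth libraries. Every value under 10 was therefore raised to 10 before the test. Paneth libraries 1 to 4 carry lane 6 in their labels, Paneth libraries 5 and 6 carry another label format with no lane, and both Lgr5 High libraries carry lane 8, so population and lane cannot be told apart. Pearson correlation of log2 values was 0.94 between the Lgr5 High libraries and 0.823 to 0.868 between Lgr5 High and Paneth libraries. It was 0.957 to 0.983 among Paneth libraries 1 to 4, 0.986 between libraries 5 and 6, and 0.937 to 0.951 across these sources. Paneth library 1 stood apart in leukocyte miRNAs. It had a miR-142-5p value of 1614 where the other Paneth libraries had at most 40.4, and it alone of the 6 had miR-150-5p (227) and miR-142-3p (164) above 0. Small RNA libraries hold no mRNA, so neither Lgr5 nor a Paneth gene could be checked in them. Of the stromal and muscle list, 11 of 22 entries, among them miR-145-5p, miR-214-3p and miR-100-5p, were at 0 in all 8 libraries. Others of the list were present. miR-143-3p had 27.4 to 322 in Paneth libraries and 26.9 and 0 in Lgr5 High libraries, while miR-10b-5p was higher in Lgr5 High cells.

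Of the 764 entries tested, limma called 148 (19.4%) higher and 104 (13.6%) lower in Lgr5 High than in Paneth cells, at a Benjamini-Hochberg adjusted p under 0.05 and a log2 difference of at least 1, or 33% in either direction. An entry is 1 miRNA, or 1 offset form of it whose name gives a shift from the annotated miRNA. Among the 317 entries without an offset, 43 (13.6%) were higher and 45 (14.2%) lower. Both Lgr5 High libraries lay above all 6 Paneth libraries for 191 entries (25%) and below all 6 for 136 (17.8%). With Paneth library 1 left out, 132 entries were higher and 90 lower. The split depends on the scale: 58.7% of calls were higher on the deposited scale, 38.8% after rescaling each library to its total and 44.8% after rescaling by the median ratio, which moved the Lgr5 High libraries by -0.58 and -0.38 log2 units relative to Paneth libraries. In sorted bulk samples, fewer cells of a type and less RNA per cell cannot be told apart.

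**Figure D1:**
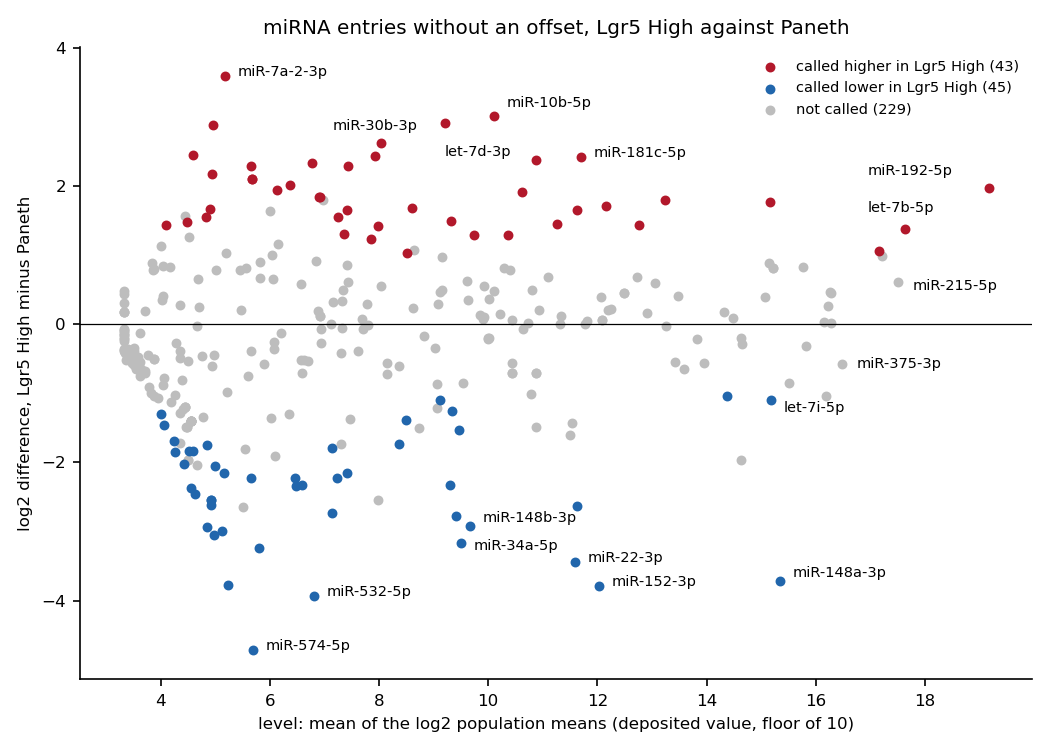
Log2 difference, Lgr5 High minus Paneth (vertical axis), against the mean of the log2 population means (horizontal axis) for the entries without an offset, with called entries coloured. The miR-148/152 seed family lies far below 0, with miR-148a-3p at -3.72 and miR-152-3p at -3.79, and miR-192-5p at 1.98 is at the right end of the plot.

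The shares of the most abundant miRNAs differed between the 2 populations. miR-192-5p, an epithelial miRNA abundant in intestine, liver and kidney, made up 30.8% and 29.8% of the summed values in Lgr5 High libraries, against 8.07%, 10.8% and 17.7% (lowest, median, highest) in Paneth libraries. Its values were 1106916 and 1165708 in Lgr5 High cells, against 177324, 268381 and 507267 in Paneth cells, a log2 difference of 1.98 (SE 0.37, limma adjusted p = 0.00327), with no overlap. miR-148a-3p showed the opposite order, with 9687 and 12132 in Lgr5 High cells against 65280, 159504 and 241935 in Paneth cells, a log2 difference of -3.72 (SE 0.49, limma adjusted p = 0.000526). It was 0.27% and 0.311% of Lgr5 High libraries, against 2.6%, 6.99% and 9.26% of Paneth libraries. The miR-192-5p to miR-148a-3p ratio was 114 and 96.1 in Lgr5 High libraries, against 0.907 to 6.13 in Paneth libraries. Paneth sources differed for miR-148a-3p, with means of 199247 in libraries 1 to 4 and 80202 in libraries 5 and 6, both above the Lgr5 High values. miR-375-3p, an endocrine and secretory miRNA, had 75216 and 73988 in Lgr5 High cells against 75529, 114358 and 143120 in Paneth cells, and its difference of -0.57 did not pass the test.

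**Figure D2:**
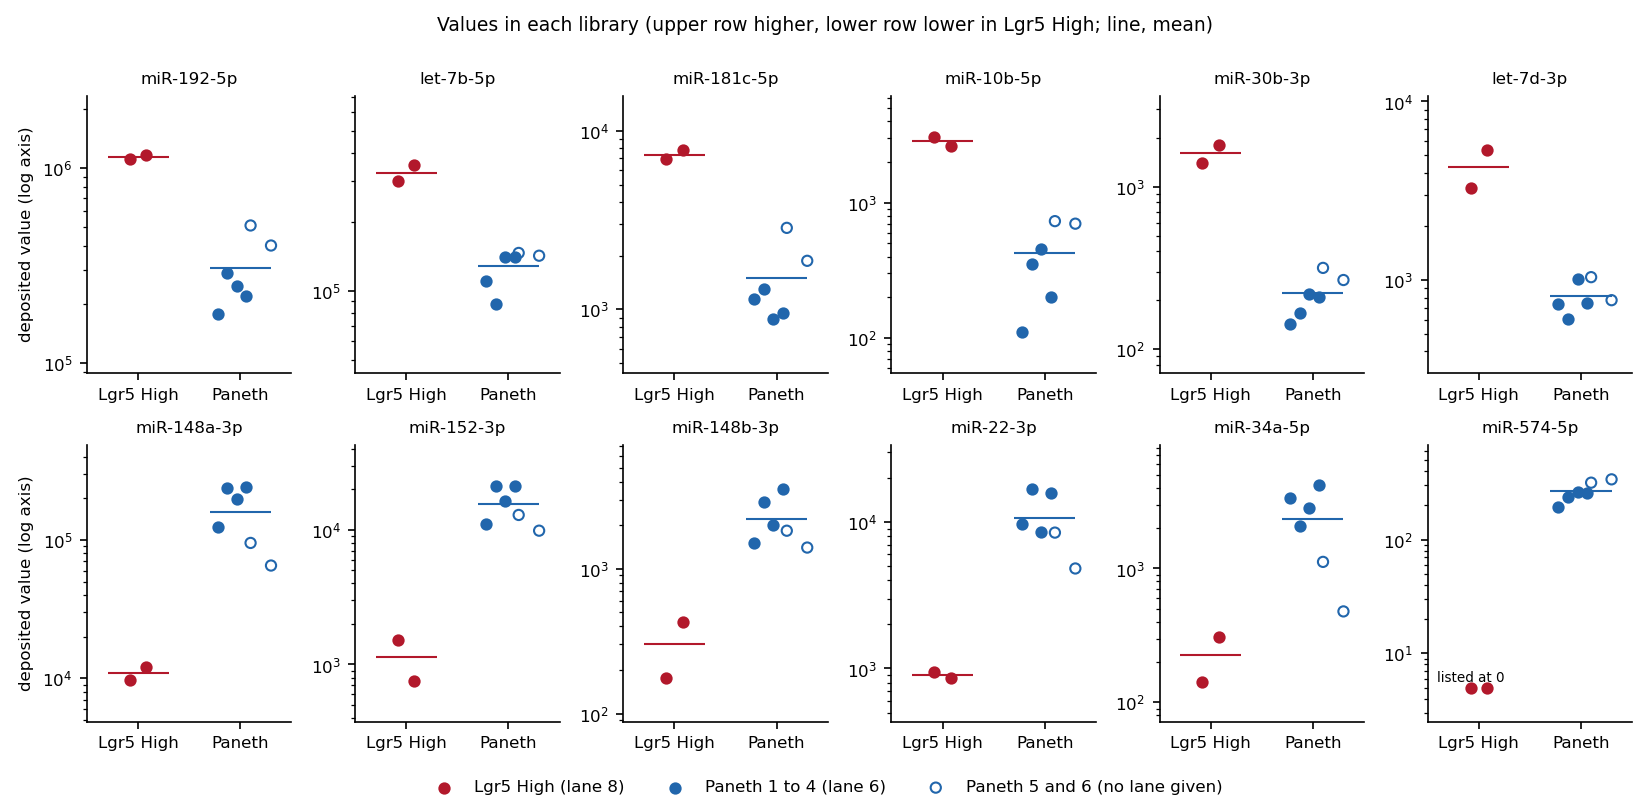
Deposited value (log axis) of 12 miRNAs in each of the 2 Lgr5 High and 6 Paneth libraries, with values listed at 0 drawn at 5 and marked. For miR-574-5p the Lgr5 High libraries are at 0 and the Paneth libraries between 195 and 339, while for miR-30b-3p the Lgr5 High values of 1408 and 1807 lie above all Paneth values.

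The miR-148/152 seed family was lower in Lgr5 High cells across its 3 hairpins. These miRNAs are known repressors of the maintenance DNA methyltransferase gene Dnmt1, among other targets. miR-152-3p had values of 1519 and 749 in Lgr5 High cells, against 9864, 14639 and 21332 in Paneth cells, a log2 difference of -3.79 (SE 0.38, limma adjusted p = 0.00012). miR-148b-3p had 175 and 428 in Lgr5 High cells, against 1398, 1920 and 3565 in Paneth cells, a log2 difference of -2.92 (SE 0.45, limma adjusted p = 0.00122). Together with miR-148a-3p these are the 3 mature miRNAs printed above with seed CAGUGCA, and the Lgr5 High libraries lay below all Paneth libraries for each. The other strand of mir-152, miR-152-5p, was at 0 in both Lgr5 High libraries, against 37, 48 and 99.1 in Paneth libraries, at least 19.7-fold lower, where the bound sets the Paneth median against the value of 10 reads in the shallower Lgr5 High library. miR-152-5p passed the filter through Paneth libraries alone. miR-148a-5p and miR-148b-5p did not pass the test, at -0.34 and -0.13. Of the list's 6 tested members, 4 were lower and none higher, with a median of -2.65 beside -0.20 over all entries without an offset. The 6 entries summed to 0.328% and 0.358% of Lgr5 High libraries, against 3.08% to 10.2% of Paneth libraries. All 4 calls were kept on leaving out each library in turn and against either Paneth source alone.

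miR-192 and its relatives moved in different directions. mir-192 and mir-194-2 lie within 10 kb of each other on chromosome 19, and mir-215 shares its seed with mir-192 and sits beside mir-194-1 on chromosome 1. Both miR-192 and miR-194 are known as miRNAs of differentiated gut epithelium. Beside the rise of miR-192-5p, miR-194-2-3p was lower, with 348 and 475 in Lgr5 High cells against 735, 1207 and 1537 in Paneth cells (log2 difference -1.53, limma). miR-194-1-5p was also lower, at 13359 and 16098 in Lgr5 High cells against 18487, 30115 and 43780 in Paneth cells (log2 difference -1.03, limma). miR-194-2-5p, the 5p arm of the other mir-194 hairpin, was not called (-0.56). It had 11500 and 14400 in Lgr5 High cells against 12900, 19700 and 25600 in Paneth cells, so the groups overlapped. miR-215-5p had 199233 and 245982 in Lgr5 High cells against 79447, 164716 and 222625 in Paneth cells, and its difference of 0.62 did not pass. The 2 carriers of the UGACCUA seed therefore stood at a ratio, miR-192-5p over miR-215-5p, of 5.56 and 4.74 in Lgr5 High libraries, against 0.859, 2.26 and 2.76 in Paneth libraries. The miR-194-1-5p call was lost without Lgr5 High library 1 (-0.89), Lgr5 High library 2 (-1.16), Paneth library 1 (-0.92) or Paneth library 5 (-0.99), and the miR-194-2-3p call without Lgr5 High library 1 (-1.31). The miR-194-1-5p call was also lost against Paneth libraries 1 to 4 alone (-1.0, short of the threshold before rounding), and the miR-194-2-3p call against libraries 5 and 6 alone (-1.16). The miR-192-5p call was kept in each of these settings.

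The let-7 family, whose members restrain growth genes such as Hmga2 and Lin28 in mammals, split by member. let-7b-5p was higher, with 300407 and 352913 in Lgr5 High cells against 87288, 139629 and 146139 in Paneth cells, a log2 difference of 1.38 (SE 0.23, limma adjusted p = 0.00191). let-7i-5p, with the same seed, was lower, with 22789 and 28224 in Lgr5 High cells against 40929, 53497 and 70865 in Paneth cells (log2 difference -1.09, limma). The let-7b-5p to let-7i-5p ratio was 13.2 and 12.5 in Lgr5 High libraries, against 1.68, 2.47 and 2.87 in Paneth libraries, with no overlap. let-7c-1-5p was called at 1.06 while let-7c-2-5p, a copy with the same mature sequence at another locus, missed the threshold at 0.99, so their reads cannot be assigned to 1 locus. let-7d-3p, the passenger arm of let-7d, had 3280 and 5352 in Lgr5 High cells against 605, 761 and 1036 in Paneth cells, a log2 difference of 2.38 (SE 0.29, limma adjusted p = 0.000374). Its 5p arm did not pass, at 0.83. Of 17 tested entries of the let-7 and mir-98 list 3 were higher and 1 lower, and the median of 0.12 became -0.45 on the library-total scale and -0.26 under the median ratio. let-7b-5p fell short of the threshold under both rescalings, at 0.80 and 1.00 (below 1 before rounding). The let-7i-5p call was lost without Lgr5 High library 1 (-0.94), and the let-7c-1-5p call without Lgr5 High library 2 (0.98) or Paneth library 2 (0.97), on the library-total scale (0.48), under the median ratio (0.68) and against Paneth libraries 5 and 6 alone (0.89).

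The miRNAs that were higher in Lgr5 High cells and kept that call in every leave-one-out fit, against either Paneth source alone and under both rescalings were 8: let-7d-3p, miR-181c-5p, miR-191-5p, miR-192-5p, miR-26b-3p, miR-30b-3p, miR-320-3p and miR-7a-2-3p. miR-181c-5p, of a family studied in lymphocytes and neurons, had 6924 and 7814 in Lgr5 High cells against 880, 1220 and 2861 in Paneth cells, a log2 difference of 2.42 (SE 0.43, limma adjusted p = 0.00275). miR-191-5p had 55340 and 79964 in Lgr5 High cells against 13558, 18700 and 26508 in Paneth cells, at 1.77 (SE 0.27, limma adjusted p = 0.00117). miR-320-3p, made from a hairpin that bypasses Drosha, had 14963 and 20946 in Lgr5 High cells against 3509, 5117 and 6598 in Paneth cells, at 1.80 (SE 0.27, limma adjusted p = 0.00119). The Lgr5 High libraries lay above all Paneth libraries for each of these. miR-7a-2-3p, the minor arm of a miR-7 precursor known from endocrine cells, had 101 and 161 in Lgr5 High cells. It was at 0 in 5 Paneth libraries and at 13.5 in Paneth library 1 (log2 difference 3.60, SE 0.30, limma adjusted p = 4.48e-05), and at a floor of 100 it was no longer called (0.35). With 1 Paneth library above 10, miR-7a-2-3p passed the filter only through the Lgr5 High libraries. Against Paneth libraries 5 and 6 alone, both at 0, it had to differ, so that kept call adds little. miR-26b-3p had 95.6 and 44.9 in Lgr5 High cells against 0, 15.2 and 24.6 in Paneth cells, at 2.18.

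Other rises passed the test with all 8 libraries and lost the call in at least 1 other setting. For miR-10b-5p and miR-301a-3p the difference moved little on leaving out 1 Lgr5 High library, and the adjusted p crossed 0.05. miR-10b-5p, transcribed from the Hoxd cluster, had 3068 and 2637 in Lgr5 High cells against 110, 406 and 731 in Paneth cells, a log2 difference of 3.02 (SE 0.68, limma adjusted p = 0.00812). With 1 Lgr5 High library left out its adjusted p in limma was 0.0538 (without library 1, difference 2.91) or 0.0509 (without library 2, difference 3.13). Its seed partner from the Hoxb cluster, miR-10a-5p, had 3496 and 2190 in Lgr5 High cells against 376, 743 and 1627 in Paneth cells (1.91, limma adjusted p = 0.0356). That call was lost without Lgr5 High library 1 (1.57) or 2 (2.25), and without Paneth library 1 (1.72), 2 (1.79) or 4 (1.74). It was also lost on the library-total scale (1.34), under the median ratio (1.53) and against Paneth libraries 5 and 6 alone (0.92). The 2 members of the AGUGCAA seed printed above were also higher, and were picked because they were called. The related miR-130b-3p was not called (0.78), with 1630 and 1910 in Lgr5 High cells against 717 to 1310 in Paneth cells. miR-301a-3p had 381 and 344 in Lgr5 High cells against 34.7, 72 and 150 in Paneth cells, at 2.30, and miR-130a-3p had 355 and 173 in Lgr5 High cells against 86.8, 99 and 118 in Paneth cells, at 1.31. The miR-301a-3p call was lost without Lgr5 High library 1 (2.23) or 2 (2.37), and the miR-130a-3p call without Lgr5 High library 1 (0.79). The miR-130a-3p call was also lost on the library-total scale (0.73), under the median ratio (0.93) and against Paneth libraries 5 and 6 alone (1.34). miR-15b-5p, of the family that targets cyclins and Bcl2, had 432 and 395 in Lgr5 High cells against 122, 155 and 179 in Paneth cells, at 1.43, and at 0.86 on the library-total scale. Its call was lost without Lgr5 High library 1 (1.37). miR-672-5p had 196 and 279 in Lgr5 High cells against 26.6, 46 and 75.4 in Paneth cells, at 2.33, and its call was lost without Lgr5 High library 2 (2.07). miR-32-3p had 192 and 140 in Lgr5 High cells against 31.3, 41.5 and 51.9 in Paneth cells, at 2.02, and its call was lost without Lgr5 High library 1 (1.80) and at a floor of 100 (0.72). miR-92b-3p had 145 and 120 in Lgr5 High cells against 16.9, 37.1 and 63.8 in Paneth cells, at 1.94, and its call was lost without Lgr5 High library 1 (1.80) or 2 (2.08). It was also lost against Paneth libraries 5 and 6 alone (1.37), on the library-total scale (1.37) and at a floor of 100 (0.40).

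A further 3 entries without an offset were at 0 in all 6 Paneth libraries. They passed the filter through the 2 Lgr5 High libraries alone, so they had to differ and their calls are given as a description. miR-126-5p, an endothelial miRNA, had 37.2 and 80.2 in Lgr5 High cells. miR-96-3p, of the mir-182 cluster, had 18.5 and 39.8 in Lgr5 High cells, and miR-1224-5p had 34.7 and 159. The value of 10 reads in the shallowest Paneth library, 9.39, was below each of these, and the Lgr5 High libraries were at least 4.15 times as deep as any Paneth library. None of the 3 was tested with either Lgr5 High library left out, and against Paneth libraries 5 and 6 alone miR-1224-5p (2.89) and miR-96-3p (1.44) were not called.

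The falls that kept their call in every leave-one-out fit, against either Paneth source alone and under both rescalings were 15, among them the 4 of the miR-148/152 family. miR-22-3p, a miRNA widely linked to differentiation, had 943 and 864 in Lgr5 High cells against 4810, 9100 and 16704 in Paneth cells, a log2 difference of -3.44 (SE 0.43, limma adjusted p = 4e-04). miR-101a-3p, known to target the Polycomb methyltransferase gene Ezh2, had 136 and 408 in Lgr5 High cells against 1072, 1692 and 2661 in Paneth cells, at -2.78 (SE 0.50, limma adjusted p = 0.00295). The Lgr5 High values of both lay below every Paneth value. miR-574-5p, a miRNA of GU repeats as printed above, was at 0 in both Lgr5 High libraries against 195, 261 and 339 in Paneth libraries, at least 107-fold lower. Its partner arm miR-574-3p was present in both populations, with 1333 and 1219 in Lgr5 High cells against 507, 1040 and 1229 in Paneth cells (0.48, not called). miR-340-5p was at 0 in both Lgr5 High libraries against 84, 140 and 196 in Paneth libraries, at least 57.3-fold lower. miR-326-3p was at 0 in both Lgr5 High libraries against 21.6, 38.9 and 42.3 in Paneth libraries, at least 15.9-fold lower. The muscle miRNA miR-1a-1-3p and its copy miR-1a-2-3p each had 5.55 and 17.6 in Lgr5 High cells against 58.3, 75.6 and 105 in Paneth cells, at -2.55. The rest of the 15 were miR-24-2-5p, miR-27a-3p, miR-147-3p and miR-361-3p. In all, 11 of the 45 falling entries without an offset were at 0 in both Lgr5 High libraries. These passed the filter through Paneth libraries alone and so had to differ. Among the 15 they were miR-152-5p, miR-24-2-5p, miR-326-3p, miR-340-5p and miR-574-5p. The direction of their calls was fixed in each setting, so a kept call adds little for them. At a floor of 100, 7 of the 15 kept their call. miR-24-2-5p (-0.08), miR-340-5p (-0.49), miR-147-3p (-0.30) and miR-361-3p (-0.08) lost it there, and miR-1a-1-3p, miR-1a-2-3p, miR-326-3p and miR-152-5p were not tested.

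miR-34a-5p, a p53-induced miRNA that has been studied in the division of colon cancer stem cells, had 143 and 307 in Lgr5 High cells against 478, 2457 and 4175 in Paneth cells, a log2 difference of -3.17 (SE 0.76, limma adjusted p = 0.0112). The Paneth sources had means of 3107 (libraries 1 to 4) and 800 (libraries 5 and 6). The call was lost without Lgr5 High library 1 (-2.61) and against Paneth libraries 5 and 6 alone (-1.81). miR-532-5p had 55.7 and 0 in Lgr5 High cells against 111, 554 and 674 in Paneth cells, at -3.93, and lost its call without Lgr5 High library 2 (-2.69), against Paneth libraries 5 and 6 alone (-2.41) and at a floor of 100 (-1.85). miR-296-3p had 28 and 0 in Lgr5 High cells against 37.7, 208 and 587 in Paneth cells, at -3.24, and lost its call without Lgr5 High library 1 (-3.98) or 2 (-2.49) or Paneth library 1 (-3.15) or 2 (-3.12), against Paneth libraries 5 and 6 alone (-1.59) and at a floor of 100 (-0.99). miR-141-5p, the minor arm of a mir-200 family hairpin, was at 0 in both Lgr5 High libraries against 35.2, 83.7 and 182 in Paneth libraries, at least 34.3-fold lower, and lost its call without Lgr5 High library 2 (-3.05) and at a floor of 100 (-0.27). The entry miR-5115 had 695 and 1727 in Lgr5 High cells against 1691, 8261 and 14729 in Paneth cells (-2.63), so the groups overlapped, and its call was lost without Lgr5 High library 1 (-1.97) or 2 (-3.28). miR-92a-1-3p, the main arm of its hairpin, differed between the Paneth sources. It had 9042 and 12089 in Lgr5 High cells, means of 85555 in Paneth libraries 1 to 4 and 9664 in libraries 5 and 6, and was not called (-1.96).

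At a few loci more than 1 entry of neighbouring hairpins was called. Of 32 clusters of hairpins within 10 kb with a tested member, 5 had at least 2 called entries, and 2 of these were called in both directions. Only entries matched to RefSeq, 233 of the 317 tested without an offset, could be placed in a cluster. The called miR-30b-3p and miR-532-5p are in none, so these counts may be too low. Over all entries without an offset 27.8% were called in either direction, so the counts describe these loci and no test of neighbours was made. At the mir-23a, mir-27a and mir-24-2 cluster on chromosome 8, 3 of 6 tested entries were lower and none higher. miR-27a-3p had 40.1 and 43.7 in Lgr5 High cells against 140, 207 and 359 in Paneth cells (-2.33, limma adjusted p = 0.00302), and miR-24-2-5p was at 0 in both Lgr5 High libraries against 37.7, 75.5 and 141 in Paneth libraries, at least 31-fold lower. miR-23a-3p had 59.5 and 22.4 in Lgr5 High cells against 123, 190 and 259 in Paneth cells (-2.34), and lost its call without Lgr5 High library 2 (-1.64), against Paneth libraries 5 and 6 alone (-2.19) and at a floor of 100 (-0.89). At the mir-191 and mir-425 cluster in Dalrd3 on chromosome 9, 3 of 4 tested entries were higher. miR-191-3p had 95.7 and 121 in Lgr5 High cells against 14.2, 21.7 and 37.8 in Paneth cells (2.30), and miR-425-5p had 6959 and 9223 in Lgr5 High cells against 1543, 2555 and 3937 in Paneth cells (1.71). The miR-425-5p call was lost without Lgr5 High library 2 (1.51), and the miR-191-3p call against Paneth libraries 5 and 6 alone (1.69).

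The mir-17 to mir-92 clusters, which promote proliferation, lie on chromosomes 5, 14 and X. That on chromosome 5 is hosted in the replication gene Mcm7 and that on chromosome 14 in Mir17hg. Their list had 4 higher and 1 lower of 21 tested entries, with a median of 0.60, and of 0.03 on the library-total scale. That count stands beside 13.6% higher and 14.2% lower over all entries without an offset, and nothing is read from it about the clusters. The called entries included passenger arms. miR-25-5p had 384 and 704 in Lgr5 High cells against 46.3, 90.1 and 198 in Paneth cells (2.44, limma adjusted p = 0.0101). miR-92a-1-5p had 439 and 846 in Lgr5 High cells against 56.9, 96.3 and 210 in Paneth cells (2.62, limma adjusted p = 0.0043), and miR-93-3p had 41.9 and 54.6 in Lgr5 High cells against 8.54, 16.9 and 23.5 in Paneth cells (1.55). All 3 calls were lost without Lgr5 High library 2, at 2.00, 2.14 and 1.36. The fourth, miR-92a-2-3p (1.46), comes from the chromosome X cluster. Its call was lost without Lgr5 High library 1 (1.32) or 2 (1.60), on the library-total scale (0.88) and under the median ratio (1.08). The 3p arm of the other mir-92a hairpin, miR-92a-1-3p, went the other way and was not called (-1.96). Against Paneth libraries 5 and 6 alone miR-25-5p (1.58) and miR-93-3p (1.66) were not called, nor was miR-93-3p on the library-total scale (1.02). The falling entry, miR-18a-3p, was at 0 in both Lgr5 High libraries against 17.8, 28.3 and 64.5 in Paneth libraries, and its call was lost without Lgr5 High library 1 (-1.69) or 2 (-1.69) or Paneth library 2 (-1.69) or 4 (-1.52) and against Paneth libraries 5 and 6 alone (-2.0).

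The arms of a hairpin did not always move together. Of 81 hairpins with both arms tested, 4 had both arms called in the same direction: mir-191 higher, and mir-22, mir-140 and mir-152 lower. For 4 hairpins, mir-30b, mir-361, mir-671 and mir-877, the arms were called in opposite directions, and 38 had 1 arm called. In these counts miR-22-5p, miR-152-5p and miR-877-3p were at 0 in both Lgr5 High libraries. They passed the filter through Paneth libraries alone, so the direction of their calls was fixed. In 39 hairpins with both arms above 10 in all 8 libraries the ratio of 5p to 3p was tested directly: 10 ratios (25.6%) were higher and 7 (17.9%) lower in Lgr5 High than in Paneth cells. Such a ratio is taken within a library and does not depend on its scaling factor.

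**Figure D3:**
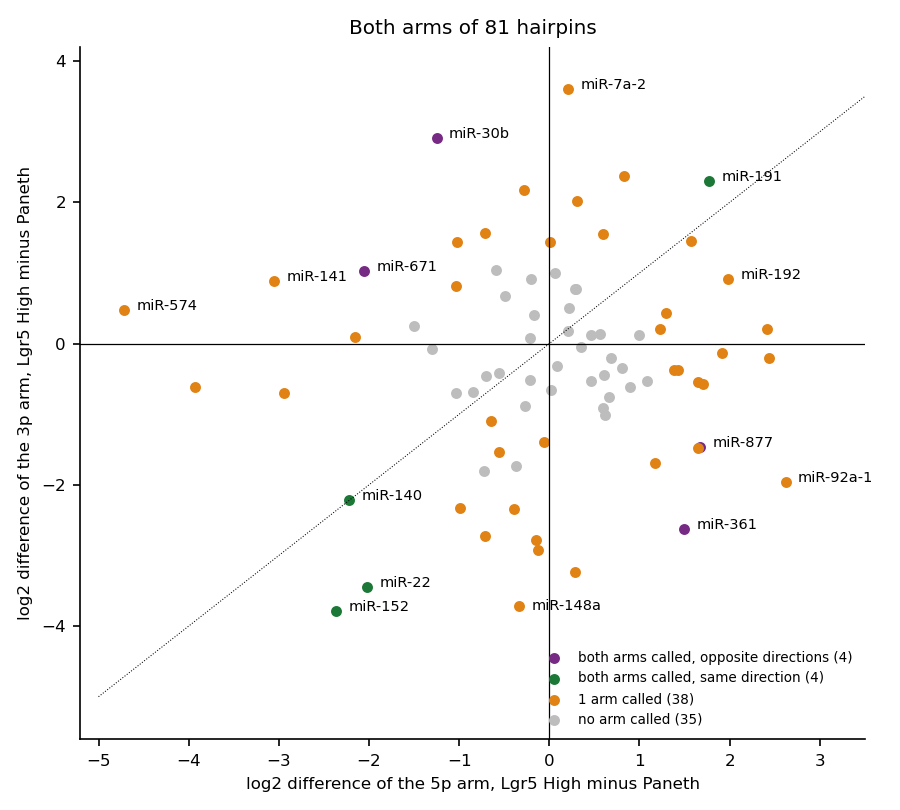
Log2 difference, Lgr5 High minus Paneth, of the 3p arm (vertical axis) against that of the 5p arm (horizontal axis) for 81 hairpins. mir-30b lies at -1.25 on the 5p axis and 2.91 on the 3p axis, and mir-152 lies below 0 on both.

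mir-30b gave the clearest case. miR-30b-3p had 1408 and 1807 in Lgr5 High cells against 142, 214 and 316 in Paneth cells, a log2 difference of 2.91 (SE 0.35, limma adjusted p = 0.000372). miR-30b-5p, the arm usually taken as the functional one, had 329 and 500 in Lgr5 High cells against 590, 1082 and 1375 in Paneth cells, at -1.25 (limma adjusted p = 0.0327). The ratio of 5p to 3p was 0.233 and 0.277 in Lgr5 High libraries, against 2.7, 4.41 and 8.22 in Paneth libraries, a log2 difference of -4.16 (SE 0.42, limma adjusted p = 0.000215). The 3p arm was thus the more abundant in both Lgr5 High libraries and the 5p arm in all 6 Paneth libraries. The miR-30b-5p call alone was lost without Lgr5 High library 1 (-0.95) or 2 (-1.55), or Paneth library 2 (-1.15), 4 (-1.18) or 5 (-1.17), and against Paneth libraries 1 to 4 alone (-1.17).

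In other hairpins the balance changed with only 1 arm called. For mir-148a the ratio of 5p to 3p was 0.0326 and 0.0505 in Lgr5 High libraries, against 0.00209, 0.00293 and 0.00869 in Paneth libraries (log2 difference 3.38, SE 0.62, limma adjusted p = 0.004), with a lower 3p arm. For mir-181c it was 86.6 and 47.8 in Lgr5 High libraries, against 9.97, 13.6 and 20 in Paneth libraries (2.22, SE 0.34, limma adjusted p = 0.00248), with a higher 5p arm. For mir-423 it was 4.32 and 6.11 in Lgr5 High libraries, against 0.275, 0.465 and 1.52 in Paneth libraries (3.12, SE 0.68, limma adjusted p = 0.00666). Here the 5p arm was higher (1.65) and the 3p arm, not called, stood at -1.48. miR-423-3p differed between the Paneth sources, with 3860 to 4900 in libraries 1 to 4 and 1560 and 1170 in libraries 5 and 6. For mir-194-1 the ratio of 5p to 3p was 9.73 and 9.12 in Lgr5 High libraries, against 21.3, 36.5 and 57.1 in Paneth libraries (-1.85, SE 0.41, limma adjusted p = 0.00719). Its 5p arm was lower (-1.03) and its 3p arm, not called, stood at 0.82. No Lgr5 High ratio overlapped a Paneth ratio in these 4 hairpins. mir-30c-1 and mir-30c-2, whose 5p arms have 1 sequence and whose 3p arms share the seed UGGGAGA printed above, went apart in the 3p arm. miR-30c-1-3p had 160 and 380 in Lgr5 High cells against 68.3, 75.6 and 120 in Paneth cells (1.56), and miR-30c-2-3p had 95 and 23.9 in Lgr5 High cells against 183, 314 and 480 in Paneth cells (-2.73). Both calls were lost without Lgr5 High library 2 (0.94 for miR-30c-1-3p and -1.73 for miR-30c-2-3p) and against Paneth libraries 5 and 6 alone (1.41 and -2.15), and that of miR-30c-1-3p on the library-total scale (0.99). The ratio of the first to the second was 1.69 and 15.9 in Lgr5 High libraries, against 0.167, 0.228 and 0.489 in Paneth libraries.

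In the remaining hairpins with opposite calls, the arms were mostly scarce. miR-361-5p had 940 and 1195 in Lgr5 High cells against 345, 377 and 413 in Paneth cells (1.49), while miR-361-3p had 20.3 and 0 in Lgr5 High cells against 58.2, 91.6 and 130 in Paneth cells (-2.62). miR-671-3p had 502 and 532 in Lgr5 High cells against 165, 258 and 345 in Paneth cells (1.03), while miR-671-5p had 27 and 0 in Lgr5 High cells against 37.7, 60.9 and 144 in Paneth cells (-2.05). miR-877-5p had 39 and 72.2 in Lgr5 High cells against 0, 17.7 and 24.9 in Paneth cells (1.67), while miR-877-3p was at 0 in both Lgr5 High libraries against 18.5, 28.2 and 36.3 in Paneth libraries. The mir-361 arms kept both calls on leaving out any library, but miR-361-5p lost its call on the library-total scale (0.92) and miR-361-3p at a floor of 100 (-0.08). The miR-671-3p call was lost without Lgr5 High library 1 (1.07) or 2 (0.99) or Paneth library 1 (0.91), 2 (0.99), 3 (1.07) or 4 (1.00), and the miR-671-5p call without Lgr5 High library 2 (-1.33) or Paneth library 1 (-2.05) or 3 (-1.93). Neither arm of mir-671 was called against Paneth libraries 5 and 6 alone (0.65 for miR-671-3p and -1.46 for miR-671-5p), miR-671-3p was not called on the library-total scale (0.46) or under the median ratio (0.65), and miR-671-5p was not at a floor of 100 (-0.10). The miR-877-5p call was lost without Lgr5 High library 2 (1.23), against Paneth libraries 5 and 6 alone (1.59), on the library-total scale (1.12) and under the median ratio (1.28), and the miR-877-3p call without Lgr5 High library 1 (-1.46) or 2 (-1.46).

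Forms with an offset of +1 were more abundant relative to their miRNA in Lgr5 High cells. The offset is read here as a start 1 base downstream of the annotated one, which moves the seed by 1 base, and the sources used here do not define it. Of 134 tested +1 entries 66 (49.3%) were higher and 8 (5.97%) lower, with a median log2 difference of 1.23, beside 0.04 over all entries. Among them were +1 forms, such as those of miR-181c-5p and miR-672-5p, at 0 in all 6 Paneth libraries. These passed the filter through the deeper Lgr5 High libraries alone and had to differ. Over all 764 entries, 18 were at 0 in all Paneth libraries and 109 in both Lgr5 High libraries. The ratios that follow leave out such entries. For 71 miRNAs with both forms above 10 in all 8 libraries, the median share of the +1 form relative to the form without an offset was 4.86% and 4.63% in Lgr5 High libraries, against 0.753% to 1.17% in the Paneth libraries. Of all 168 such ratios at any offset, limma called 53 (31.5%) higher and 4 (2.38%) lower, and of the 71 at +1 it called 43 higher and 1 lower.

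**Figure D4:**
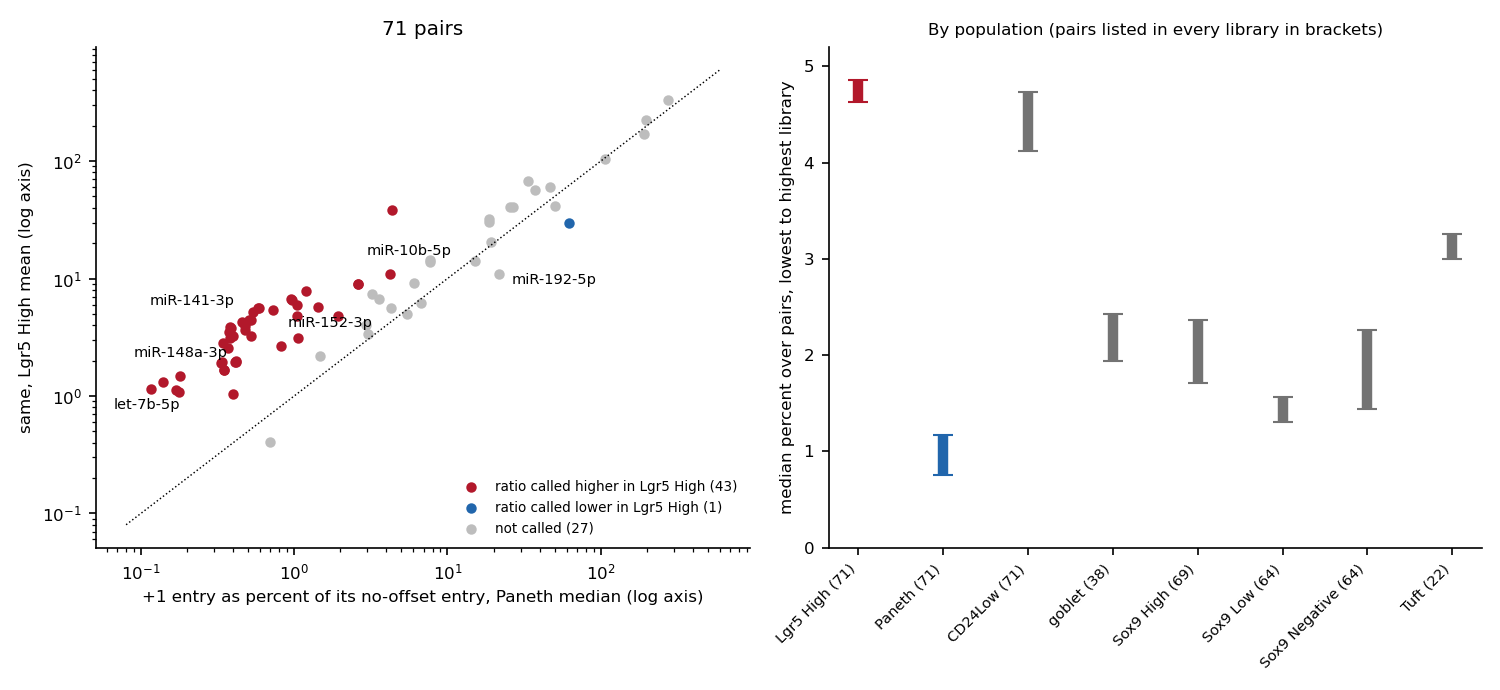
Left, the share of the +1 form (percent of the form without an offset, log axes), Lgr5 High mean against Paneth median, for 71 miRNAs, and right, bars from the lowest to the highest library's median share in 8 populations. Of the 71 ratios, 43 were called higher and 1 lower in Lgr5 High cells, and the medians of Lgr5 High (4.63% to 4.86%) and CD24Low (4.12% to 4.73%) libraries are above those of Paneth libraries (0.753% to 1.17%).

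For let-7b-5p the +1 share was 1.3% and 1.35% in Lgr5 High libraries, against 0.101%, 0.14% and 0.162% in Paneth libraries. For miR-141-3p, of the epithelial mir-200 family, it was 3.92% and 4.63% in Lgr5 High libraries, against 0.231%, 0.454% and 0.522% in Paneth libraries. For miR-192-5p it was 10.8% and 11.2% in Lgr5 High libraries, against 16.2%, 21.6% and 24% in Paneth libraries, a log2 difference of -0.89 that was not called. High +1 shares were also seen in CD24Low libraries, with medians of 4.12% to 4.73% over 71 pairs. Tuft libraries had medians of 3% to 3.26%, but only over the 22 pairs above 0 in every tuft library. That selection favours pairs with a large share, so the tuft medians are not comparable. In tuft libraries the let-7b-5p and miR-141-3p shares were 0% to 0.17% and 0% to 0.311%, overlapping those of Paneth libraries. Lgr5 High and CD24Low libraries were also the deepest, at 16013732 to 24611108 and 13348905 to 30958439 reads, and the part of depth or of library preparation in the +1 shares was not tested.

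Across the 8 populations with values, the Paneth level was the extreme one for some of these miRNAs and the Lgr5 High level for others. miR-152-3p averaged 1134 ± 544 in Lgr5 High cells (SD, n = 2), which were second, and 15430 ± 5016 in Paneth cells (SD, n = 6), which were highest, and its mean in the other populations was 27.7 to 616. miR-148a-3p averaged 10910 ± 1728 in Lgr5 High cells (SD, n = 2), the lowest mean, against 159565 ± 75353 in Paneth cells (SD, n = 6), the highest, with Sox9 Low cells next at 36788 ± 1854 (SD, n = 4). The Lgr5 High range of 9687 to 12132 overlapped those of CD24Low cells (9714 to 14878) and Sox9 High cells (12123 to 15429), so these 3 are not set apart by their spread. miR-34a-5p and miR-101a-3p also had their highest mean in Paneth cells, at 2338 ± 1387 and 1721 ± 666 (SD, n = 6). miR-192-5p was highest in Lgr5 High cells, at 1136312 ± 41573 (SD, n = 2), followed by goblet cells at 806587 ± 52489 (SD, n = 4), and lowest in Paneth cells at 306801 ± 124149 (SD, n = 6). miR-30b-3p averaged 1608 ± 283 in Lgr5 High cells (SD, n = 2), above the highest library of any other population, 1038 in Sox9 Low cells.

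**Figure D5:**
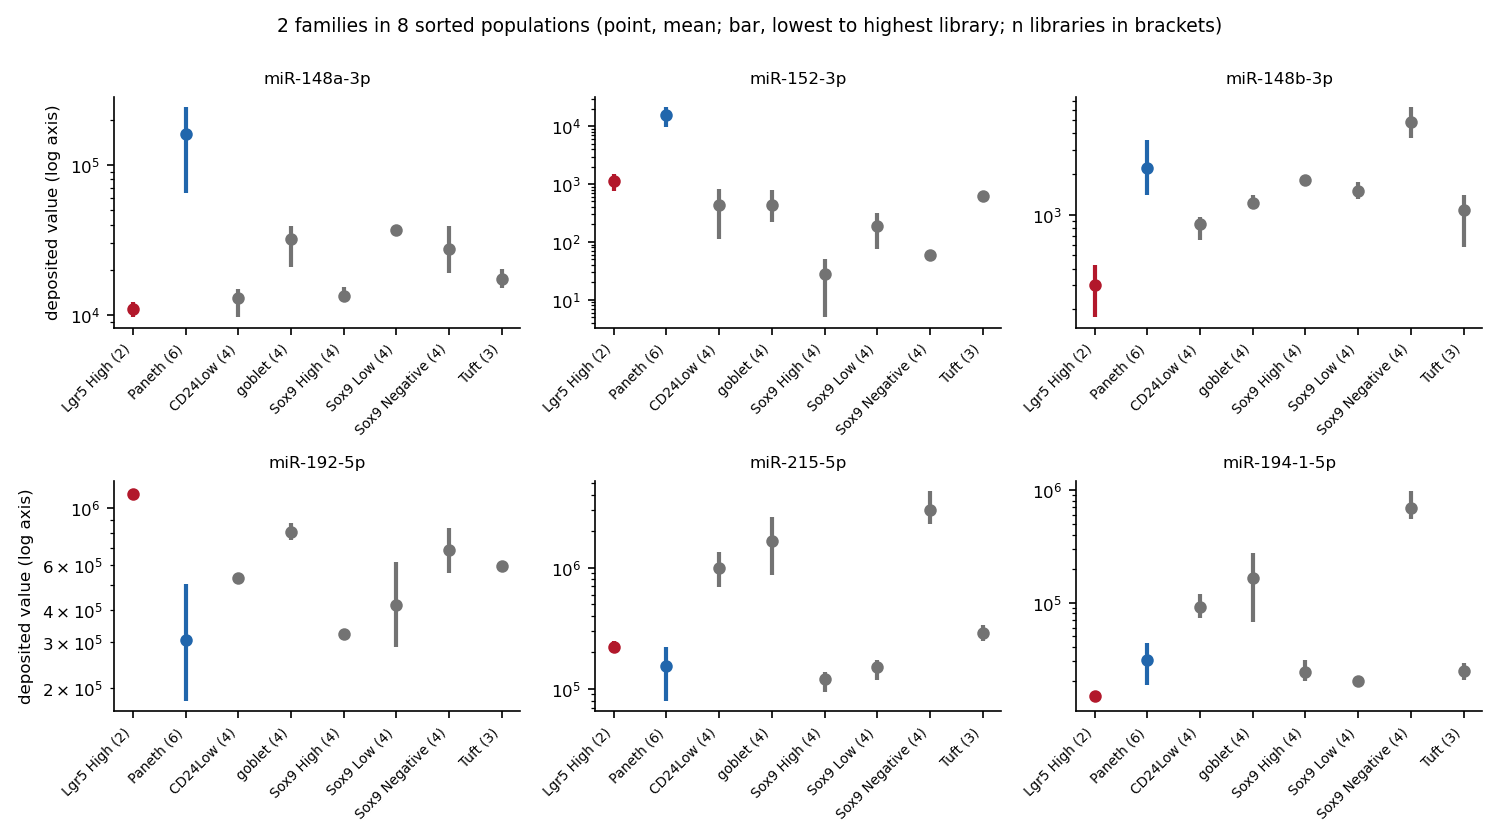
Mean value (point, log axis) with the lowest and highest library (bar) of 3 miR-148/152 family members and of miR-192-5p, miR-215-5p and miR-194-1-5p in 8 populations. Lgr5 High cells are highest for miR-192-5p and lowest for miR-194-1-5p, and Paneth cells are highest for miR-152-3p and miR-148a-3p.

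miR-22-3p was lowest in Lgr5 High cells, at 904 ± 55.8 (SD, n = 2), and highest in goblet cells, at 23886 ± 5445 (SD, n = 4), so its Paneth level of 10646 ± 4617 (SD, n = 6) was not an extreme. miR-574-5p was at 0 in both Lgr5 High libraries, and its mean in the other populations was 29.8 to 619. miR-10b-5p averaged 2853 ± 305 in Lgr5 High cells (SD, n = 2), which did not differ from Sox9 Low cells at 3322 ± 1554 (SD, n = 4) beyond their spread, and its lowest mean was in Paneth cells, at 426 ± 255 (SD, n = 6). miR-194-1-5p was lowest in Lgr5 High cells at 14728 ± 1937 (SD, n = 2), against 690787 ± 200829 (SD, n = 4) in Sox9 Negative cells. The labels give no lane for goblet, tuft and CD24Low libraries, and lanes differ between most of the other populations, so these orders are descriptions.

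miRNAs of other cell types that a sort could carry gave low and mixed values. The stromal and muscle list had 1 higher and 2 lower of 9 tested entries of 22, and summed to 3106 and 2755 in Lgr5 High libraries against 342 to 1147 in Paneth libraries, most of it miR-10b-5p. On this list miR-143-3p lay below all Paneth values in both Lgr5 High libraries and was not called (-2.65). The leukocyte list had 1 higher of 6 tested entries of 10, miR-342-5p (1.23), and summed to 1665 and 3133 in Lgr5 High libraries against 2548 to 9538 in Paneth libraries. The miR-342-5p call was lost without either Lgr5 High library (0.76 without library 1 and 1.70 without library 2) and without Paneth library 2 (1.17), 3 (1.29), 4 (1.21), 5 (1.14) or 6 (1.19), against either Paneth source alone (1.08 and 1.54) and under both rescalings (0.66 and 0.85). The endothelial list summed to 54.1 and 80.2 in Lgr5 High libraries and to 0 in all Paneth libraries. The erythroid list had miR-486-5p, a copy of miR-3107-5p, at 103 and 97.6 in Lgr5 High libraries against 12, 23 and 50.4 in Paneth libraries (2.10), while its other 4 entries were at 0 in all 8. The miR-486-5p call was lost without Lgr5 High library 1 (2.06) or 2 (2.14) and against Paneth libraries 5 and 6 alone (1.43). Of the Dlk1-Dio3 cluster list, 32 of 35 entries were at 0 in all 8 libraries. The part of such cells in the differences was not tested.

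The other lists are given beside the 13.6% called higher and 14.2% called lower over all entries without an offset. The mir-30 list had 2 higher and 3 lower of 12 tested entries (median -0.43), and the mir-23, mir-24 and mir-27 list 1 higher and 3 lower of 10 (median -0.70), beside a median of -0.20 over entries without an offset. The mir-200 list had 1 lower of 8 (median 0.13, and -0.45 on the library-total scale), the mir-182 cluster list 1 higher of 4 (0.40, and -0.18 on the library-total scale), and the mir-181 list 1 higher of 8 (0.11, and -0.47 on the library-total scale). The mir-15 and mir-16 list had 1 higher of 7 (-0.38), the mir-34 and mir-449 list 1 lower of 5 (-0.59), and the mir-29 list no call among 4 (-0.28). These 4 are all 5p arms, so the list does not speak for miR-29 as a whole. The joint 3p entry miR-29abc-3p, outside the list, had 1700 and 1390 in Lgr5 High cells against 1850 to 9890 in Paneth cells. The endocrine and neural list had 2 higher and 1 lower of 14 (0.07, and -0.50 on the library-total scale). Of 15 tested miRNAs from earlier mouse work on intestinal stem or Paneth cells, 1 was higher and 3 lower (0.21, and -0.36 on the library-total scale). miR-21-5p, an abundant miRNA of stressed and proliferating epithelium, had 49788 and 50186 in Lgr5 High cells against 58206, 123788 and 154810 in Paneth cells, and at -1.04 its limma adjusted p was 0.0746.

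Host genes of called miRNAs were read in single-cell RNA sets of 12-month wild type mice of the same series. The authors' annotation gave 78 and 80 intestinal stem cells (ISC) and 84 and 74 Paneth cells in sets 1 and 2, and the sets shared 0 barcodes. No doublet caller was run here, and the treatment of doublets is not given in the sources used here. UMI counts (unique molecules) were summed over the cells of a type and scaled to a common total, as CPM. Lyz1, which encodes Paneth lysozyme, had 408 and 159 CPM in ISC against 59800 and 62800 CPM in Paneth cells. Lgr5 had 34 and 64.1 CPM in ISC against 6.31 and 23.2 CPM in Paneth cells. Of 8803 genes with at least 30 UMIs, 93.3% were higher in ISC in both sets and 3.62% higher in Paneth cells in both, so a higher ISC value is the background here. The median gene stood at 2.40 and 1.56 log2 units, ISC over Paneth, in sets 1 and 2, with 1 CPM added to each value. Of 23 host genes with at least 30 UMIs, 19 were higher in ISC in both sets and 1, Copz2, was higher in Paneth cells in both. Copz2, the coatomer subunit gene that hosts mir-152, had 1 UMI in ISC of each set, or 0.829 CPM (95% exact Poisson interval 0.021 to 4.62) and 0.689 CPM (0.0174 to 3.84). In Paneth cells it had 187 and 160 UMIs, or 31.9 CPM (27.5 to 36.8) and 36.1 CPM (30.7 to 42.1). Copz1, the paralog that hosts mir-148b, had 92.8 CPM (76.4 to 112) and 55.8 CPM (44.3 to 69.4) in ISC against 18.1 CPM (14.8 to 21.9) and 27.1 CPM (22.4 to 32.4) in Paneth cells. Its log2 values of 2.30 and 1.02, ISC over Paneth, were below those of the median gene, so no direction relative to other genes is read from the higher ISC level. Fam114a1, the host of mir-574, had 6.63 CPM (2.86 to 13.1) and 6.89 CPM (3.31 to 12.7) in ISC against 5.63 CPM (3.88 to 7.91) and 12 CPM (8.95 to 15.6) in Paneth cells, with overlapping intervals. Its log2 values were 0.20 and -0.71, and 4.66% and 3.66% of the genes lay below them, so relative to other genes it stood on the Paneth side. These intervals cover counting error only, and with 1 value per set no test was made.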

How the data were processed

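Small RNA was sequenced from FACS-sorted cells, per the labels' protocols. The authors deposited 1 table of normalized signal per miRNA or isomiR entry and library. Its values are reads divided by 1 factor per library, as their equal steps show. Of the scaling, the alignment and the counting, no tool is named in the sources used here. The genome build is mm9, per the submitters' processing notes, and sequences and positions here are from RefSeq for GRCm38.p6. RefSeq matched 233 of the 317 tested entries without an offset. The table holds 2670 entries, 31 columns were used, and 3 columns that match no library's labels were not. The single-cell files hold UMI counts deposited by the authors, summed here per set and annotated cell type.

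Values under 10 were raised to 10, and entries above 10 in at least 2 of the 8 libraries were kept. The fit used limma 3.58.1 in R 4.3.3 on log2 values, with the intensity trend option and without covariates. It was two-sided, with Benjamini-Hochberg adjustment over all 764 entries, and was tested on simulated data. Arm and offset ratios were fitted the same way, a test added after seeing the data, as were the median-ratio rescaling and the fit of entries without an offset alone. Counts, host genes and figures used Python 3.11.15 with pandas 2.3.3, numpy 2.4.6, scipy 1.17.1 and matplotlib 3.10.9. Count models on the reads recovered from these steps were planned and not run.

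Named miRNAs were, among called entries without an offset whose higher population averaged 100 or more, the 15 largest rises and 15 largest falls, 1 per mature sequence. To these were added the 5 most abundant entries per population and up to 3 tested members of each of 19 lists. miRNAs named for shared seeds, arms, clusters, stability across settings or values of 0 were chosen after their values were seen. The comparison, members and lists were chosen with earlier results of these data known. Numbers shared by Lgr5 High and Paneth samples (1 and 2) were not taken to pair them, and deviations correlated at -0.0595 and -0.12. With 2 Lgr5 High libraries this check cannot show that the samples are unpaired. Alternatives changed the floor, added constant, filter, scaling, libraries and Paneth source.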

Additional observations from a re-analysis of the deposited data

Results flagged for a closer look

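In 6 of the 65 named miRNAs tested for it, 1 of the 6 Paneth libraries stood far from the others, by a gap to the nearest library that took up most of the whole range. Chance gives this in about 1 in 20 groups of normally distributed values. That rate does not apply to miR-7a-2-3p, miR-127-3p and miR-29c-5p, which were at 0 in 5 Paneth libraries. There any single listed value stands apart. In Paneth library 1, miR-142-5p was 1614 against 40.4 in the next library, miR-127-3p was 28.5 with the others at 0, and miR-7a-2-3p was 13.5 with the others at 0. In Paneth library 2, miR-29c-5p was 11.2 with the others at 0. In Paneth library 3, miR-296-3p was 587 against 239 in the next library. In Paneth library 5, miR-92a-1-5p was 210 against 111 in the next library. Among these, the calls of miR-7a-2-3p and miR-92a-1-5p were kept without the library that stood apart, as was that of miR-296-3p. Without Paneth library 1, miR-7a-2-3p was at 0 in all Paneth libraries left and so had to differ.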

How the results depend on the processing

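No called entry changed sign in any alternative run. A floor of 100 left 352 entries, with 78 higher and 50 lower. Rescaling to library totals gave 97 higher, and no filter on low values gave 64 lower. Fitting the entries without an offset alone gave 42 higher and 48 lower. Leaving out each library in turn gave 85 to 146 higher and 53 to 115 lower, and the lowest counts came without Lgr5 High library 2 (85) and Lgr5 High library 1 (53), where the lone library is assumed to vary like the Paneth libraries. Paneth libraries 1 to 4 alone gave 159 lower, and libraries 5 and 6 alone gave 58. Of the 43 higher and 45 lower entries without an offset, 12 and 15 kept their call without each library in turn. At either Paneth source alone, 24 and 22 did. Of the named miRNAs, 10 lost their call at the floor of 100. For offset ratios (53 higher, 4 lower), the floor of 100 gave 16 and 0, leaving out a library gave 50 to 58 and 2 to 13, and lower ratios were 12 against Paneth libraries 1 to 4 and 1 against libraries 5 and 6. For arm ratios (10 higher, 7 lower), the floor of 100 gave 4 and 4, leaving out a library gave 6 to 11 and 2 to 9, and Paneth libraries 5 and 6 alone gave 4 and 2. With the replicate number as a block, limma called 0 higher and 0 lower, with 235 entries at an unadjusted p under 0.05, against 346 without the block. Numbers 1 and 2 are the only ones shared, and the labels link these samples by nothing but the number. edgeR, DESeq2 and trimmed-mean scaling were planned for whole reads and were not run. A miRNA at 0 in Paneth libraries may hold up to 9 reads, so values of miRNAs under 9.39 there were not detectable.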
